A study of Homo sapiens with 16 samples.

Results

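Integrins are cell surface receptors built from an alpha and a beta subunit, and the 10 subunit genes ITGA2, ITGA3, ITGA4, ITGA5, ITGA7, ITGA10, ITGB1, ITGB2, ITGB4 and ITGB7 were followed here through the peak lists of 2 histone marks. They are 10 of the 19974 protein-coding gene records on chromosomes 1 to 22 and X. They were chosen with earlier results from these same peak lists known. Every peak that met a gene's RefSeq record or the 10 kb on either side of it by at least 1 bp was counted as a peak of that gene. The series asks what mutants of NSD2, a histone methyltransferase also called WHSC1, do to chromatin marks, and names the C-terminal of NSD2 in connection with adhesion genes of myeloma cells.

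Every group was made from TKO, a line whose label gives the cell type plasma cell and the genotype KMS-11 WHSC1(+/-), where KMS-11 is a line from multiple myeloma. The forms were TKO cells with NSD2 D1240A, TKO cells with NSD2 F1295A, plain TKO cells for which the labels name no added form, and TKO cells with wild type NSD2 (WT). Chromatin was profiled by ChIPmentation, in which the precipitated chromatin is cut and tagged by a transposase. Each form had 2 samples for H3K27me3, 1 for H3K4me3 and 1 for IgG, 16 samples in all, and the IgG samples were not analysed here. Both H3K27me3 samples of a form share 1 deposited peak list, so the data are 8 lists, 1 for each of the 4 forms and 2 marks. With 1 list per form and mark from 1 cell line there was no replicate spread to set a difference against, and all differences between forms are differences between lists, given without a test. Sequencing depth is unknown, as the lists hold no read numbers.

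H3K27me3 is written by Polycomb repressive complex 2 and covers silent genes in broad stretches, whereas H3K4me3 marks the start sites of active or poised genes. NSD2 writes H3K36me2, a mark that hinders Polycomb repressive complex 2. In myeloma and other plasma cells, the alpha subunit encoded by ITGA4 pairs with that of ITGB1 to bind VCAM1 and fibronectin on bone marrow stroma, or with that of ITGB7 to bind MADCAM1. ITGB2 encodes the beta subunit of the leukocyte integrins and ITGA5 the alpha subunit of the classical fibronectin receptor. ITGA2 and ITGA10 belong to collagen receptors, and ITGA3, ITGA7 and ITGB4 to laminin receptors known mainly from epithelium and muscle.

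The promoters of the 6 members that have a start site in the RefSeq promoter table (GRCh38.p14) are shown because the marks split them: the start sites of ITGB7, ITGA4 and ITGB1 lay under H3K4me3 in all 4 forms, that of ITGA5 lay under H3K27me3 in all 4 forms, that of ITGA2 under H3K27me3 in TKO, and that of ITGA10 under neither mark. Each line is the 250 bases upstream of the start, written 5′ to 3′ on the strand of the gene, with every CG dinucleotide in capitals. The windows are chr12:53207252-53207501, minus strand for ITGB7; chr2:181457136-181457385, plus strand for ITGA4; chr10:32958231-32958480, minus strand for ITGB1; chr12:54419267-54419516, minus strand for ITGA5; chr5:52989102-52989351, plus strand for ITGA2; and chr1:145910051-145910300, minus strand for ITGA10.
ITGB7: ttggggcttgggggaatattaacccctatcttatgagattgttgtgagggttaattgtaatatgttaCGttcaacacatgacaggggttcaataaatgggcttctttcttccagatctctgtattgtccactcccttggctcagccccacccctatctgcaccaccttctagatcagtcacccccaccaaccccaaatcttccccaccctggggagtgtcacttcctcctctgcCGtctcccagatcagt
ITGA4: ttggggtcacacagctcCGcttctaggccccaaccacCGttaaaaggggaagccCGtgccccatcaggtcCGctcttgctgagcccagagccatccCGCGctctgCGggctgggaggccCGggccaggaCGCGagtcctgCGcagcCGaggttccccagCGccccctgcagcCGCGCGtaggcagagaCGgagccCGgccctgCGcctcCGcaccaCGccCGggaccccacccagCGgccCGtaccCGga
ITGB1: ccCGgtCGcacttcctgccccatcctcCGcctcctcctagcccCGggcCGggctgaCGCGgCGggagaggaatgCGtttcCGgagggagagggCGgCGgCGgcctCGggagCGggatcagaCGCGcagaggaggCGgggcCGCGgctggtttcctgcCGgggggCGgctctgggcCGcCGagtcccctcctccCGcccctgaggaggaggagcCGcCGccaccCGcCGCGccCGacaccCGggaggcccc
ITGA5: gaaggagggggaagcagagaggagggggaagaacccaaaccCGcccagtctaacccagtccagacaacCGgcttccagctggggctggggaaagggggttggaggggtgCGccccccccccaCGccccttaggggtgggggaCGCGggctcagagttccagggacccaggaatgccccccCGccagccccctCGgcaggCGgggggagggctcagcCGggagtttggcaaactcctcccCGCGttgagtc
ITGA2: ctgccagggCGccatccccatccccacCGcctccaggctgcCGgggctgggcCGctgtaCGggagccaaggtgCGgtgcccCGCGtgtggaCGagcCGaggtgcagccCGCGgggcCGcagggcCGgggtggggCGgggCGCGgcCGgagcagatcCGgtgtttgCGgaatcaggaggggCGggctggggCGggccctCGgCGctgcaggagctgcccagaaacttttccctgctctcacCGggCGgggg
ITGA10: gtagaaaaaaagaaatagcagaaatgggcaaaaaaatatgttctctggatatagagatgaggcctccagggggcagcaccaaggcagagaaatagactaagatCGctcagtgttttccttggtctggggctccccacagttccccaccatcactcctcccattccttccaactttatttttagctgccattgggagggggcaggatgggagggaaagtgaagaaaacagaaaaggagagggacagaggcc

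ITGB7 stood apart from the other members with a start site under H3K4me3 in the composition of its promoter. It held 2 CG dinucleotides in 250 bases and a GC content of 49.6%, and 8.15% of the 15812 promoters in the table held fewer CGs. ITGB1 held 32 CGs at 78.4% GC and ITGA4 held 25 at 72.8% GC, against a median of 17 CGs and 62.4% GC over all 15812 promoters. ITGA2, whose start lay under H3K27me3 in TKO and under no peak elsewhere, held 26 CGs at 76.4% GC, between ITGA4 and ITGB1. ITGA5 held 12 CGs at 70% GC. ITGA10 held 1 CG at 48.4% GC, and 3.12% of promoters held fewer.

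Across the table, start sites under H3K4me3 alone had a median of 23 CGs in every form, with quartiles of 17 and 29. Start sites under H3K27me3 alone had a median of 12 CGs in D1240A, 11 in F1295A, 10 in TKO and 12 in WT, so with 12 ITGA5 stood at or just above the middle of these promoters. A promoter as poor in CG as that of ITGB7 was uncommon under H3K4me3. Of the start sites covered by H3K4me3, those with at most 2 CGs were 0.792% in D1240A (53 genes), 0.828% in F1295A (59), 0.671% in TKO (43) and 0.812% in WT (57). Among all 15812 promoters, 493 held 0 CGs, 796 held 1 and 750 held 2. The GC box GGGCGG, counted on both strands, was found 4 times in ITGA2, 3 times in ITGB1 and 1 time in ITGA5, and 56% of all promoters hold it. The ETS core GAGGAA was found in ITGB1 and in ITGB7, and 23.5% of all promoters hold it. Neither TATAAA (9.25% of promoters) nor the RUNX core TGTGGT (8.9%) was found in any of the 6 windows.

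**Figure D1:**
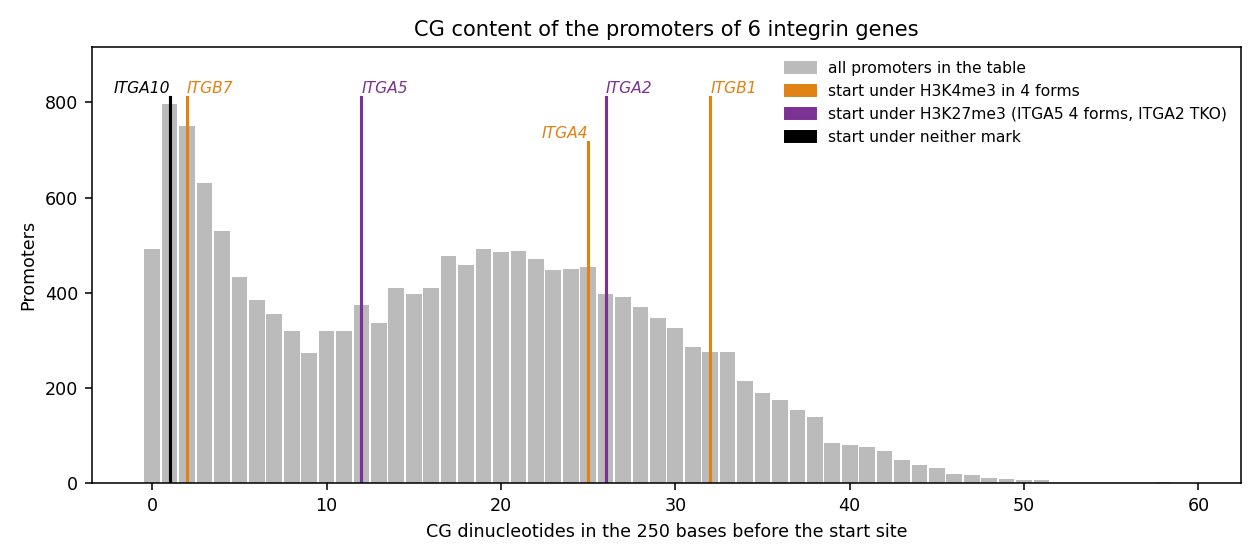
CG dinucleotides in the 250 bases before the start site (x axis) against the number of promoters (y axis, grey bars, 15812 promoters). The vertical lines mark the 6 integrin genes, coloured by the mark that covered their start. ITGB7, with 2 CGs, lies at the low end beside ITGA10, with 1, while ITGB1, with 32, lies above the bulk of promoters.

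The lists were of unequal length. The H3K27me3 lists held 2188 peaks in D1240A, 2083 in F1295A, 5881 in TKO and 3790 in WT, with median widths of 10.36, 12.79, 7.496 and 9.554 kb in the same order. The H3K4me3 lists held 7712, 8239, 7396 and 8140 peaks in that order. Markers of the labelled cell type were checked with H3K4me3. Of 10 plasma cell genes, 6 had an H3K4me3 peak in D1240A, 7 in F1295A, 5 in TKO and 7 in WT. IRF4, PRDM1, XBP1, TNFRSF17 and MZB1 had one in every form, while CD38, SLAMF7 and FCRL5 had none in any form. SDC1 had H3K4me3 in F1295A and WT, and H3K27me3 in all 4 forms. SLAMF7 had H3K27me3 in TKO and WT. Over all genes the share with H3K4me3 was 49.2% in D1240A, 52.1% in F1295A, 47.5% in TKO and 51.4% in WT, so the plasma cell counts alone do not show the cell type. In every form the mark was also called at the B cell genes CIITA and BCL6, at 2 of 8 myeloid genes (CD14 and LYZ), at 0 of 8 T and NK cell genes and at 0 of 8 stromal genes.

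H3K27me3 was called at 6 of the 10 integrin genes in D1240A, where 9.36% of all protein-coding genes had such a peak, at 6 in F1295A (9.93% of all genes), at 7 in TKO (18.4%) and at 6 in WT (16.1%). The 6 were the same genes in every form: ITGA3, ITGA5, ITGA7, ITGA10, ITGB2 and ITGB4. Over all genes, 8.34% were called in all 4 forms. ITGA2 was called in TKO alone, and 4.36% of genes were called in TKO and not in WT. ITGA4, ITGB1 and ITGB7 had no H3K27me3 peak in any form, like 79.5% of genes. Because the members were picked with these calls known, nothing is read from their share against these backgrounds.

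H3K4me3 was called at 8 integrin genes in D1240A (49.2% of all genes), 8 in F1295A (52.1%), 8 in TKO (47.5%) and 7 in WT (51.4%). ITGA3, ITGA4, ITGA7, ITGA10, ITGB1, ITGB4 and ITGB7 had a peak in all 4 forms, as did 46.6% of all genes. ITGB2 had one in every form but WT, and ITGA2 and ITGA5 had none in any form, as did 47% of all genes. Both marks were called at 5 integrin genes in D1240A (3.48% of all genes), 5 in F1295A (4.14%), 5 in TKO (6.63%) and 4 in WT (6.82%).

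A peak in the window was not always a peak of the gene itself. The H3K4me3 peaks of ITGA10, ITGB2 and ITGB4 lay wholly outside the gene record, over or beside a neighbouring gene. With the gene record alone and no window, H3K4me3 was called at 5 of the 10 genes in every form, where it was called at 43.6% of all genes in D1240A, 46.4% in F1295A, 41.6% in TKO and 45.6% in WT, so that the members' share was near that of all genes. Both marks were called in the record of 2 members in every form, against 0.841% of all genes in D1240A, 1.17% in F1295A, 1.56% in TKO and 1.81% in WT. Among the 6 members with a known start site, H3K4me3 covered the start of 3 in every form, where it covered 42.3% of the 15812 starts in D1240A, 45.1% in F1295A, 40.6% in TKO and 44.4% in WT. H3K27me3 covered the start of 1 member in D1240A (3.19% of starts), 1 in F1295A (3.44%), 2 in TKO (5.87%) and 1 in WT (5.89%).

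**Figure D2:**
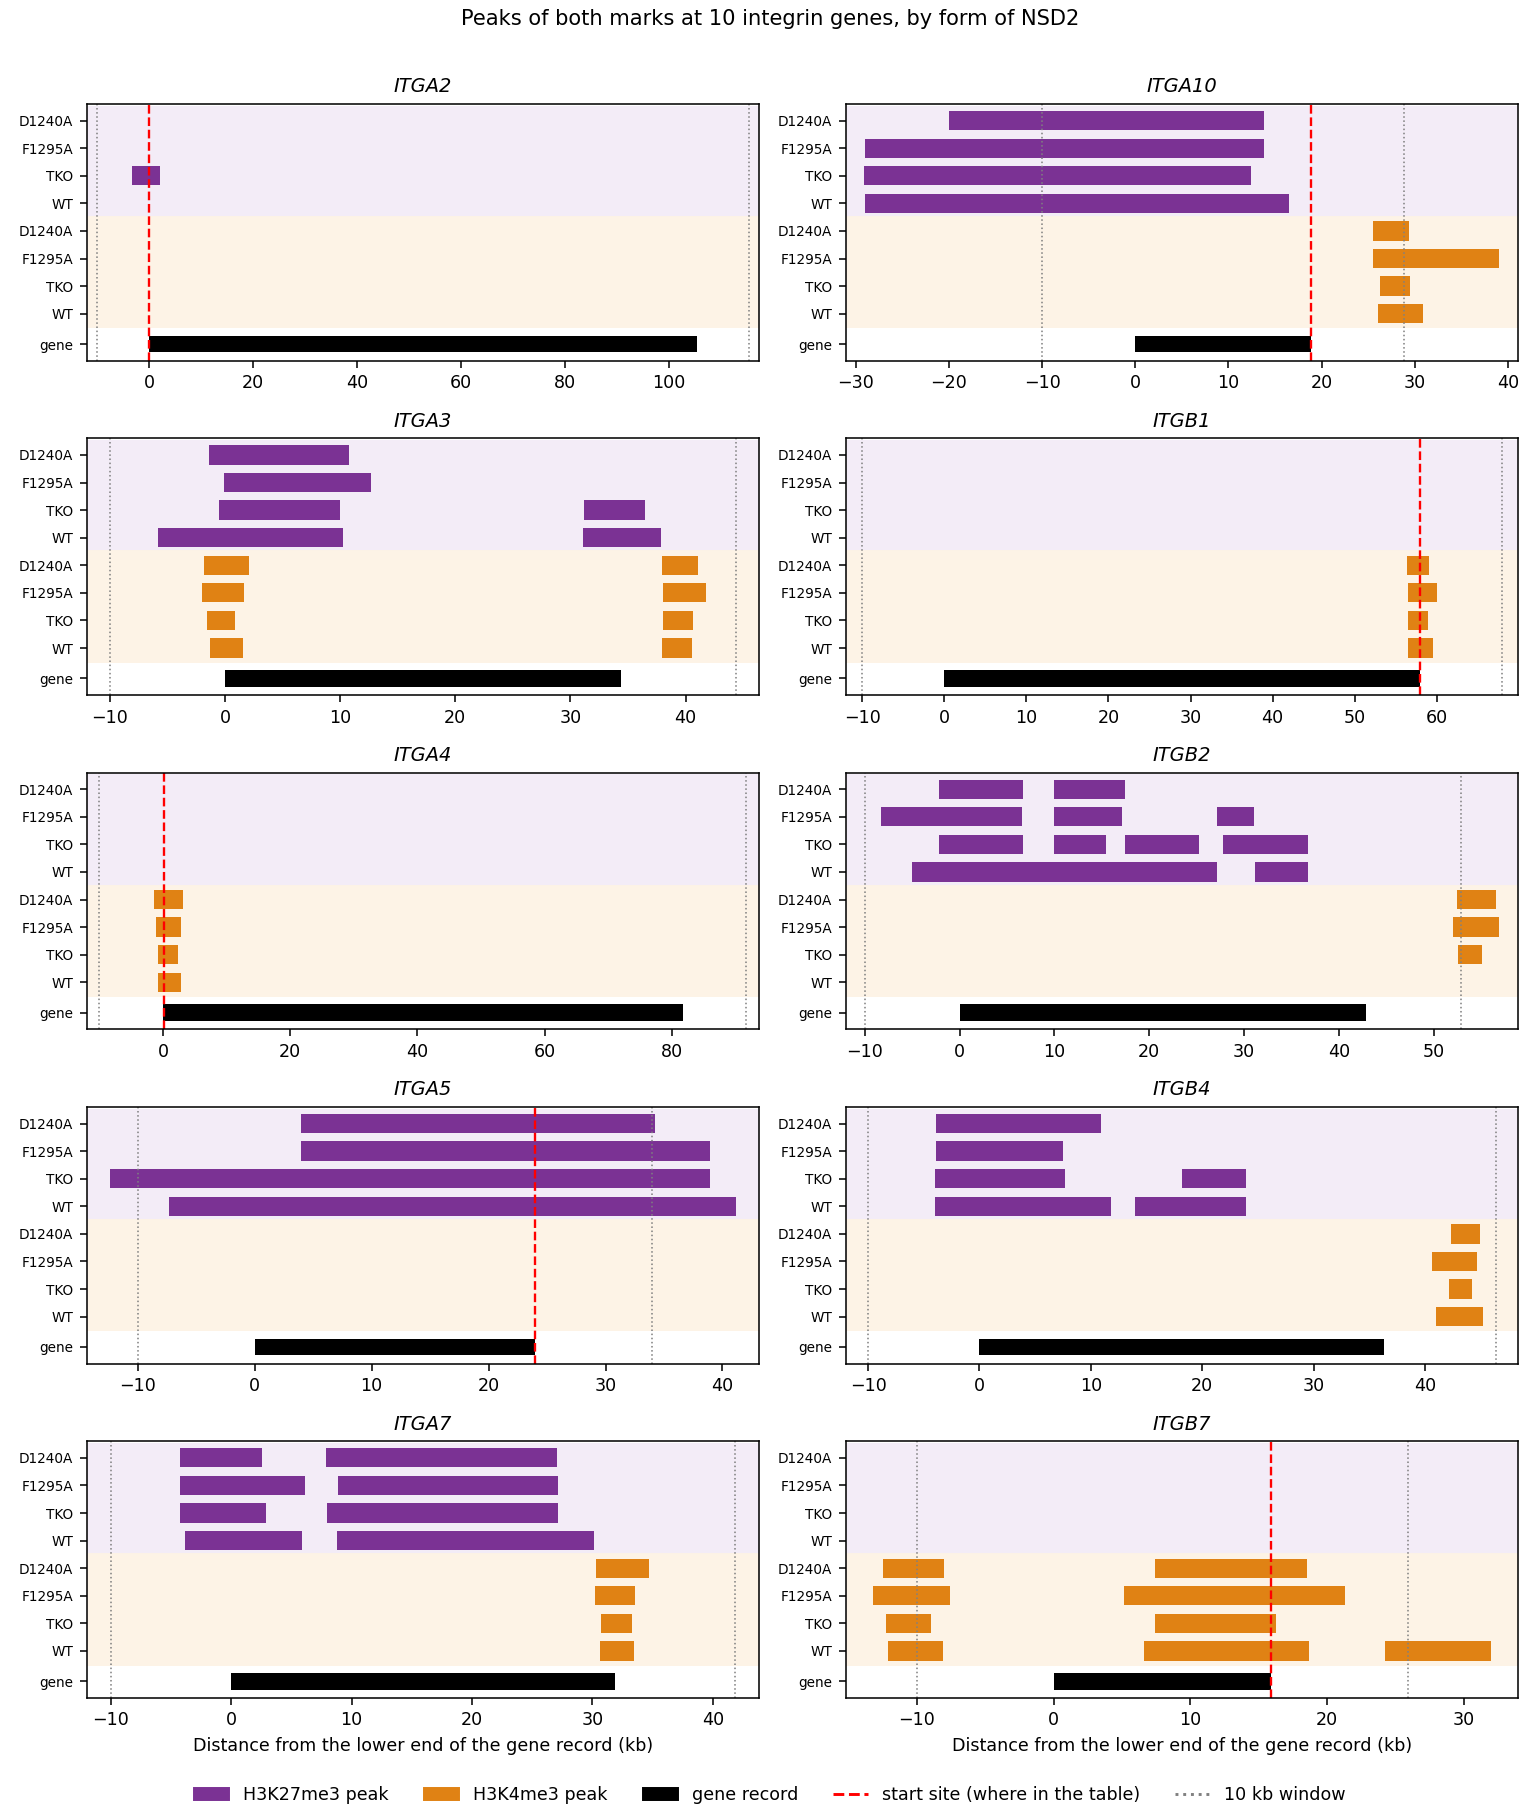
Peaks of H3K27me3 (purple) and H3K4me3 (orange) at each of the 10 genes, by form, with distance in kb from the lower coordinate of the gene record on the x axis; the black bar is the gene record, the red dashed line the start site where the table gives it, and the dotted lines the 10 kb window. ITGA4, ITGB1 and ITGB7 carry only H3K4me3, ITGA5 only H3K27me3, and at ITGA3 the marks overlap in all 4 forms.

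ITGB7, the beta subunit that partners ITGA4 in gut homing and ITGAE in epithelial retention, carried the H3K4me3 peak with the highest total signal over a start site among the members with a known start. By mean signal, the authors' coverage averaged over the peak, it was lower than the peak over the ITGA4 start in every form, with 123 in D1240A, 126 in F1295A, 72.6 in TKO and 126 in WT, against 149, 216, 113 and 171 at ITGA4 in the same order. Its record spans chr12:53191323-53207251 on the minus strand. The peak over the start was 11.1 kb wide in D1240A, 16.2 kb in F1295A, 8.88 kb in TKO and 12.1 kb in WT. The median H3K4me3 peak was 3.35 kb wide in D1240A, 3.70 kb in F1295A, 2.70 kb in TKO and 3.29 kb in WT, so that of ITGB7 was several times wider in each list. By width it exceeded 99.3% of the other peaks in D1240A, 99.7% in F1295A, 99.7% in TKO and 99.5% in WT.

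By total signal, the sum of the authors' coverage over the peak, the ITGB7 peak ranked 154 from the strongest in D1240A, 102 in F1295A, 129 in TKO and 128 in WT. These ranks correspond to percentiles, the share of the other peaks of the list with less total signal, of 98.0 (95% interval 97.7 to 98.3), 98.8 (98.5 to 99.0), 98.3 (97.9 to 98.6) and 98.4 (98.1 to 98.7) in the same order. The highest signal lay 104.5 bp after the start site in D1240A, 131 bp in F1295A, 130.5 bp in TKO and 155 bp in WT, so in each list the summit stood just inside the gene, and the mark then ran on over the gene body. It covered 53.5% of the record in D1240A, 67.6% in F1295A, 53.5% in TKO and 58.6% in WT. Ranked by mean signal, which divides the total by the width, the same peak stood at percentiles of 66.1 in D1240A, 58.4 in F1295A, 65.5 in TKO and 67.0 in WT, lower than by total signal or by width.

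Another H3K4me3 peak in the ITGB7 window lay 8.05 kb from the record in D1240A, 7.56 kb in F1295A, 8.96 kb in TKO and 8.09 kb in WT, over the starts of CSAD and ZNF740. Its percentile was 90.5 in D1240A, 90.5 in F1295A, 91.5 in TKO and 92.0 in WT. WT alone had a further peak inside the window, 7.77 kb wide over part of RARG. The counterpart in the other lists was not lost but lay just outside, 11.3 kb from the ITGB7 record in D1240A, 10.4 kb in F1295A and 11.8 kb in TKO. No H3K27me3 was called at ITGB7. The nearest such peak stood a further 22.6 kb beyond the window in D1240A, 21.8 kb in F1295A, 21.8 kb in TKO and 22.2 kb in WT.

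ITGA4, the alpha subunit shared by the VCAM1 and MADCAM1 receptors, had an H3K4me3 peak over its start and no H3K27me3 for megabases. Its record spans chr2:181457205-181538940 on the plus strand. The peak was 4.59 kb wide in D1240A, 3.85 kb in F1295A, 3.09 kb in TKO and 3.56 kb in WT, and reached 2.14 to 3.02 kb into the gene. It stood at total signal percentiles of 85.2 in D1240A (84.3 to 85.9), 84.1 in F1295A (83.3 to 84.9), 87.7 in TKO (86.9 to 88.4) and 81.0 in WT (80.1 to 81.8). The summit lay 636.5 bp after the start in D1240A, 723 bp in F1295A, 359.5 bp in TKO and 681 bp in WT. All 4 lists thus placed it downstream of the start, nearest to it in TKO. Beyond the window, the nearest H3K27me3 peak was 12.1 Mb away in D1240A, 22.7 Mb in F1295A, 3.69 Mb in TKO and 6.75 Mb in WT.

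ITGB1, the beta subunit of most matrix-binding integrins, showed the same arrangement with a peak of middle rank. Its record spans chr10:32900318-32958230 on the minus strand. The H3K4me3 peak over the start was 2.67 kb wide in D1240A, 3.51 kb in F1295A, 2.49 kb in TKO and 3.02 kb in WT, with the summit 303, 484, 525 and 377 bp after the start in that order. Its percentile was 61.1 in D1240A (60.01 to 62.2), 64.2 in F1295A (63.2 to 65.2), 40.7 in TKO (39.5 to 41.8) and 70.9 in WT (69.9 to 71.9). In TKO it was therefore not among the stronger 50% of peaks, whereas in the other 3 lists it was. The nearest H3K27me3 peak was 11.4 Mb beyond the window in D1240A, 11.4 Mb in F1295A, 1.89 Mb in TKO and 4.21 Mb in WT.

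ITGA5, the fibronectin receptor alpha subunit, had an H3K27me3 domain over its start in all 4 forms and no H3K4me3, an arrangement found at no other member with a known start. Its record spans chr12:54395261-54419266 on the minus strand. A single peak was 30.3 kb wide in D1240A, 35.0 kb in F1295A, 51.3 kb in TKO and 48.5 kb in WT, at percentiles of 85.5 (83.9 to 86.9), 86.4 (84.9 to 87.9), 97.1 (96.7 to 97.5) and 92.4 (91.5 to 93.2) in the same order. In TKO and WT it covered 100% of the gene record and ran on into ZNF385A. In D1240A it covered 83.4% and in F1295A 83.5%, and ended 20.0 kb downstream of the start in each, at positions 20 bp apart, which left the 3′ end of the gene uncovered. Upstream of the start it reached 10.2 kb in D1240A, 14.9 kb in F1295A, 14.9 kb in TKO and 17.1 kb in WT. The nearest H3K4me3 peak beyond the window was 24.96 kb away in D1240A, 24.18 kb in F1295A, 58.63 kb in TKO and 25.01 kb in WT.

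ITGA10, the collagen receptor alpha subunit known from cartilage, held the H3K27me3 peak with the most total signal of any member in every list. Its record spans chr1:145891208-145910050 on the minus strand. The peak was 33.9 kb wide in D1240A, 42.8 kb in F1295A, 41.5 kb in TKO and 45.6 kb in WT, at percentiles of 95.7 (94.8 to 96.6), 96.1 (95.2 to 96.9), 98.8 (98.5 to 99.1) and 98.3 (97.8 to 98.7). It also lay over the neighbouring gene ANKRD35. It stopped inside ITGA10 in every form, 4.99 kb downstream of the start in D1240A, 5.01 kb in F1295A, 6.38 kb in TKO and 2.29 kb in WT, so the start itself was free of the mark. It covered 73.5% of the record in D1240A, 73.4% in F1295A, 66.2% in TKO and 87.8% in WT. On the far side from the start, D1240A had a separate H3K27me3 peak outside the window, 22.2 kb from the record. That peak spanned chr1:145862146-145868990, 6.845 kb, at a percentile of 91.9. In F1295A, TKO and WT the ITGA10 peak itself ran over nearly all of that stretch, so the smaller D1240A width goes with a split there.

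The H3K4me3 peak in the ITGA10 window stood upstream of the gene, its near edge 6.65 kb from the start in D1240A, 6.70 kb in F1295A, 7.44 kb in TKO and 7.22 kb in WT. It was 3.91 kb wide in D1240A, 13.5 kb in F1295A, 3.18 kb in TKO and 4.82 kb in WT, and in F1295A alone it also covered the start of RBM8A. In D1240A, TKO and WT a separate peak lay there, 13.5, 15.9 and 15.6 kb from the ITGA10 record, which in F1295A was joined to the first. The gap between the H3K27me3 and H3K4me3 peaks was 11.6 kb in D1240A, 11.7 kb in F1295A, 13.8 kb in TKO and 9.51 kb in WT.

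ITGA7, a laminin receptor alpha subunit of muscle, carried 2 H3K27me3 peaks in each form. Its record spans chr12:55684568-55716400 and its start is described here by the lower and upper ends of the record. The inner peak, wholly within the record, was 19.2 kb wide in D1240A, 18.3 kb in F1295A, 19.2 kb in TKO and 21.3 kb in WT, at percentiles of 81.3 (79.6 to 82.9), 83.0 (81.4 to 84.6), 92.4 (91.7 to 93.0) and 91.6 (90.6 to 92.4). Its upper edge fell within 85 bp in D1240A, F1295A and TKO and 2.97 kb farther on in WT. The other peak lay over the lower end of the record and the start of TMT1B, and was 6.80 kb wide in D1240A, 10.4 kb in F1295A, 7.14 kb in TKO and 9.73 kb in WT. Its percentile was 26.9 in D1240A, 79.1 in F1295A, 90.1 in TKO and 60.6 in WT, so it stood low in the D1240A list and high in the TKO list.

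At the upper end of ITGA7 an H3K4me3 peak covered both the record's end and the start of BLOC1S1, so the part that belongs to each gene cannot be told apart. It was 4.43 kb wide in D1240A, 3.31 kb in F1295A, 2.60 kb in TKO and 2.82 kb in WT, at percentiles of 64.6, 67.1, 61.1 and 63.9. The inner H3K27me3 peak ended 3.21 kb short of it in D1240A, 3.13 kb in F1295A and 3.56 kb in TKO, but 0.488 kb short of it in WT. The marks came closest in WT and shared no base in any form. The next H3K4me3 peak on that side fell just outside the window, 10.7 kb from the record in D1240A, 10.04 kb in F1295A, 11.005 kb in TKO and 10.6 kb in WT.

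ITGB2, the beta subunit of the leukocyte integrins, had between 2 and 4 H3K27me3 peaks, the most variable number among the members. Its record spans chr21:44885953-44928815. D1240A had 2 peaks, of 8.81 and 7.43 kb. F1295A had 3, of 14.9, 7.13 and 3.92 kb. TKO had 4, of 8.91, 5.50, 7.75 and 8.96 kb. WT had 2, of which the larger was a continuous 32.2 kb (chr21:44880883-44913073) that took in both peaks of D1240A and the first 3 of TKO and overlapped the first 2 of F1295A. The covered length in the window was 16.2 kb in D1240A, 26.0 kb in F1295A, 31.1 kb in TKO and 37.8 kb in WT, and the covered share of the record was 32.9%, 41.1%, 67.5% and 76.5% in the same order. The strongest peak stood at percentiles of 57.0 in D1240A, 71.5 in F1295A, 86.6 in TKO and 90.7 in WT.

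The call of H3K4me3 at ITGB2 rested on the edge of the window. The peak lay over the start of SLX9, 9.59 kb from the ITGB2 record in D1240A, 9.17 kb in F1295A and 9.69 kb in TKO, inside the 10 kb limit. In WT the same peak stood at 10.2 kb, just outside it. It reached 0.413 kb into the window in D1240A, 0.828 kb in F1295A and 0.308 kb in TKO. On the other side of the gene another H3K4me3 peak lay at 10.0, 10.2, 10.2 and 10.2 kb in D1240A, F1295A, TKO and WT, outside in all 4. A peak called in these forms and not in WT was seen at 0.24% of genes for D1240A, 1.48% for F1295A and 0.295% for TKO.

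ITGB4, the beta subunit of the laminin receptor of hemidesmosomes, had an H3K27me3 peak over the lower end of its record in every form. Its record spans chr17:75721459-75757818. The peak was 14.9 kb wide in D1240A, 11.4 kb in F1295A, 11.7 kb in TKO and 15.8 kb in WT, at percentiles of 45.4 (43.3 to 47.5), 30.3 (28.3 to 32.3), 70.2 (69.0 to 71.4) and 80.0 (78.7 to 81.2). A second peak inside the gene was called in TKO, 5.75 kb wide at a percentile of 19.4, and in WT, 9.95 kb wide at a percentile of 51.6, and in neither mutant. The second TKO peak was not among the 2083 strongest of its list, while the second WT peak was. The covered share of the record was 30.02% in D1240A, 20.6% in F1295A, 36.9% in TKO and 59.9% in WT.

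The lower edge of the ITGB4 domain was placed almost identically by all lists, over a range of 44 bp between the 4 forms. It is named because its range was the smallest among the outermost edges of the members with H3K27me3 in all forms. The highest H3K27me3 edge at ITGB4 ranged over 16428 bp, with a second peak in TKO and WT alone. Among the 1283 H3K27me3 peaks of WT that met exactly 1 peak in each other form, the median range of the lower edge was 2845 bp and that of the upper edge 2733 bp, and 6% of these edges fell within 100 bp. For the other members the lowest H3K27me3 edge ranged over 447 bp at ITGA7, 5731 bp at ITGA3, 6186 bp at ITGB2, 9040 bp at ITGA10 and 16364 bp at ITGA5. Where a member has several peaks, these are outermost edges, unlike the edges of single matched peaks in the comparison. Only peaks that met the window were used, and the 9040 bp at ITGA10 depends on this. There the D1240A peak in the window began at position 145871179, and a further D1240A peak outside the window began at 145862146. The lowest edge at ITGA10 was at 145862209 in F1295A, 145862139 in TKO and 145862160 in WT. The H3K4me3 peak in the ITGB4 window lay past its upper end at the start of GALK1, 5.97 kb from the record in D1240A, 4.24 kb in F1295A, 5.83 kb in TKO and 4.65 kb in WT, at percentiles of 6.37, 28.7, 9.90 and 19.5.

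ITGA3, a laminin receptor alpha subunit of epithelium, was the only member at which the marks shared bases, and they did so in all 4 forms. Its record spans chr17:50056110-50090481. H3K27me3 over the lower end was 12.1 kb wide in D1240A, 12.7 kb in F1295A, 10.5 kb in TKO and 16.04 kb in WT, and H3K4me3 at the same end was 3.93, 3.67, 2.44 and 2.84 kb wide in that order. The marks shared 3.46 kb in D1240A, 1.74 kb in F1295A, 1.42 kb in TKO and 2.84 kb in WT. Any base under both marks was found at 0.581% of all genes in D1240A, 0.871% in F1295A, 0.606% in TKO and 1.28% in WT. Whether the marks lie on the same molecules or in different cells cannot be told apart in these lists.

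No peak of ITGA3 stood higher than a percentile of 57.0 in its list. The lower-end H3K27me3 peak stood at percentiles of 16.6 in D1240A (15.1 to 18.3), 19.5 in F1295A (17.9 to 21.3), 57.0 in TKO (55.7 to 58.2) and 55.8 in WT (54.2 to 57.4). The H3K4me3 peak stood at 25.7 in D1240A, 40.6 in F1295A, 14.1 in TKO and 21.3 in WT. A second H3K27me3 peak over the upper end was called in TKO (5.35 kb, percentile 34.5) and WT (6.76 kb, percentile 49.1) and in neither mutant. Neither TKO peak at ITGA3 was among the 2083 strongest of its list, while both WT peaks were. A second H3K4me3 peak in the window lay over the start of PDK2 in every form, 3.12 kb wide in D1240A, 3.72 kb in F1295A, 2.53 kb in TKO and 2.64 kb in WT.

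ITGA2, the collagen receptor alpha subunit known from platelets, had 1 H3K27me3 peak in TKO and no other peak of either mark in any form. Its record spans chr5:52989352-53094779 on the plus strand. The TKO peak spanned chr5:52986059-52991504, 5.45 kb, and covered the start site, with 3.29 kb upstream of it and 2.15 kb inside the gene. It ranked low in its list, at a percentile of 13.9 (13.02 to 14.8), and was not among the 2083 strongest TKO peaks, the length of the shortest list. Elsewhere the nearest H3K27me3 peak beyond the window was 20.05 Mb away in D1240A, 19.1 Mb in F1295A and 0.374 Mb in WT. An H3K4me3 peak lay past the far end of the gene, 14.1 kb from the record in D1240A and 13.6 kb in WT, outside the window.

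**Figure D3:**
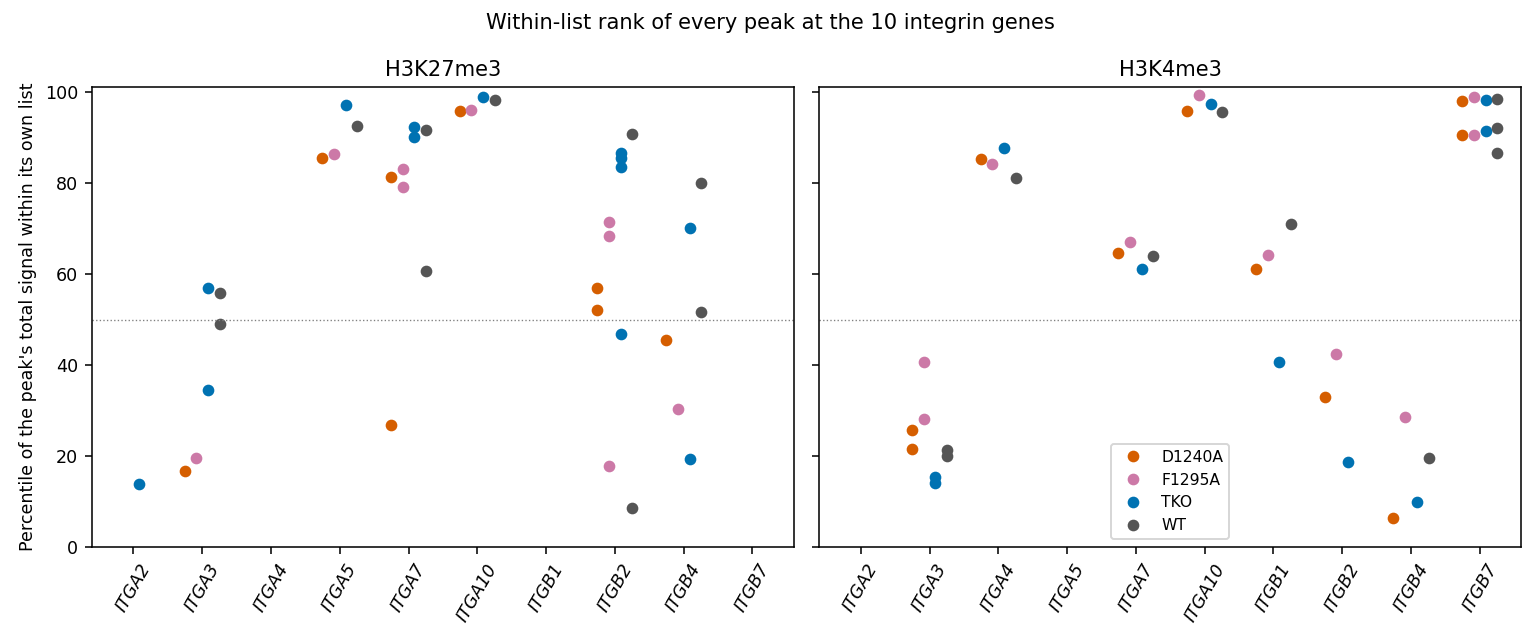
Percentile of the total signal of each peak within its own list (y axis) for H3K27me3 (left) and H3K4me3 (right) at the 10 genes (x axis); each point is 1 peak, coloured by form, and the dotted line is the middle of the list. ITGA10 H3K27me3 and ITGB7 H3K4me3 sit near the top of all 4 lists, while the H3K27me3 peak of ITGA2 and the H3K4me3 peaks in the windows of ITGA3, ITGB2 and ITGB4 sit below the middle. The lists differ in length, so heights are not comparable between forms.

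Over the 6 genes with H3K27me3 in all 4 forms, the mark covered less of the window in both mutants than in WT. ITGA3 had 12.1 kb covered in D1240A, 12.7 kb in F1295A, 15.9 kb in TKO and 22.8 kb in WT. ITGA5 had 30.02, 30.04, 44.0 and 41.3 kb in the same order. Of the 6, ITGA5 alone was covered over a greater length in TKO than in WT. ITGA7 had 26.0 kb in D1240A, 28.7 kb in F1295A, 26.4 kb in TKO and 31.1 kb in WT. ITGA10 spanned the narrowest range, with 23.9 kb in D1240A, 23.8 kb in F1295A, 22.5 kb in TKO and 26.6 kb in WT. ITGB4 had 14.9, 11.4, 17.4 and 25.7 kb in the same order.

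D1240A covered fewer bases than WT at 6 of the 6 genes, with a ratio to WT between 0.429 and 0.898 and a median of 0.652. Of the 1665 genes called in all 4 forms, 87.2% had fewer bases covered in D1240A than in WT, with a median ratio of 0.774. F1295A covered fewer bases at 6 of the 6, with ratios of 0.445 to 0.922 and a median of 0.706, against 71% of the 1665 genes and a median of 0.907. TKO covered fewer at 5 of the 6, with ratios of 0.677 to 1.06 and a median of 0.834, against 60.2% and a median of 0.966. The direction at the integrin genes was thus that of most genes in the same lists. Depth and calling threshold can each change covered length, and their part was not tested.

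**Figure D4:**
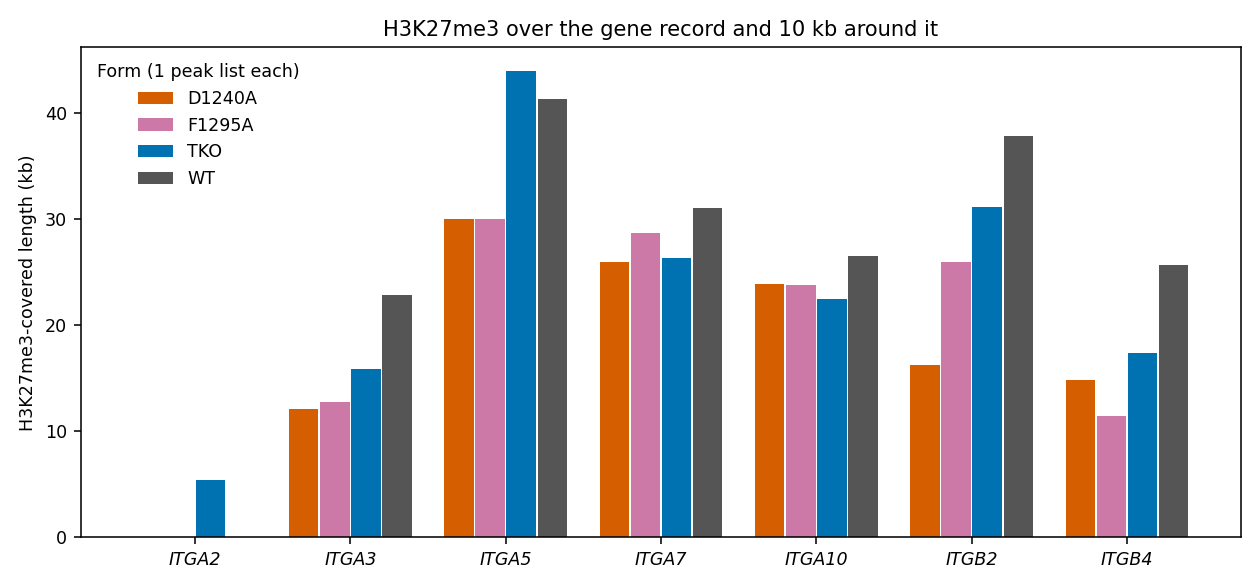
H3K27me3-covered length in kb (y axis) within the gene record and 10 kb around it, for the 7 integrin genes with a peak in any form (x axis), with 1 bar per form from 1 peak list each and no error bar. The WT bar is the tallest at 5 of the 7 genes, ITGA5 is covered most in TKO, and ITGA2 has a bar in TKO alone.

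The other genes of the family were counted whole. Of the 16 other integrin subunit genes, H3K27me3 was called at 1 in D1240A, 1 in F1295A, 5 in TKO and 3 in WT, and H3K4me3 at 7 in every form. Over all genes H3K27me3 was called at 9.36% in D1240A, 9.93% in F1295A, 18.4% in TKO and 16.1% in WT. For H3K4me3 the all-gene shares were 49.2%, 52.1%, 47.5% and 51.4% in the same order, against 43.8% of the 16 in every form. With the 2083 strongest peaks of each list alone (equal peak numbers), ITGA11 was the only one of the 16 called in any form, and TKO had no more than the other forms. The 7 with H3K4me3 were ITGA1, ITGAE, ITGAL, ITGAV, ITGB3, ITGB5 and ITGB8. At ITGB3 the call rested on a short stretch, 0.58 kb of the window in D1240A, 0.56 kb in F1295A, 0.51 kb in TKO and 0.617 kb in WT. ITGA11, a collagen receptor subunit like ITGA10, carried H3K27me3 in all forms over 22.4 kb in D1240A, 23.7 kb in F1295A, 36.4 kb in TKO and 26.1 kb in WT. ITGAE, the alpha partner of ITGB7 that binds E-cadherin, was covered by H3K27me3 over 7.73 kb in TKO and 10.5 kb in WT. H3K27me3 covered ITGA2B, the platelet fibrinogen receptor subunit, over 5.79 kb in TKO and 5.94 kb in WT. Neither gene had an H3K27me3 peak in the mutants. ITGB5 (3.85 kb) and ITGA6, the partner of ITGB4 (3.37 kb), had H3K27me3 in TKO alone, with the whole lists. ITGAL, an alpha partner of ITGB2, had H3K4me3 in every form while ITGB2 had H3K27me3 in every form.

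Of 30 integrin adaptors and activators, H3K27me3 was called at 4 in D1240A, 3 in F1295A, 8 in TKO and 5 in WT. These were 13.3%, 10.0%, 26.7% and 16.7% of the list, against 9.36%, 9.93%, 18.4% and 16.1% of all genes. H3K4me3 was called at 16, 17, 16 and 17 in that order. These were 53.3%, 56.7%, 53.3% and 56.7%, against 49.2%, 52.1%, 47.5% and 51.4% of all genes. At equal peak numbers the H3K27me3 counts were 4 in D1240A, 3 in F1295A, 4 in TKO and 4 in WT. PTK2, PARVG and PARVB were then called in none, while ZYX was still called in TKO and in no other form. No all-gene share is given for that setting. ZYX also had H3K4me3 in all 4 forms. SRC, TNS1 and RASGRP2 carried H3K27me3 in all forms, at equal peak numbers too. RASGRP2 also had H3K4me3 in all 4 forms, whereas SRC and TNS1 had H3K4me3 in none. LIMS2, a scaffold of the integrin-linked kinase complex, was covered over 11.4 kb in D1240A, 11.2 kb in TKO and 16.8 kb in WT, with no peak in F1295A, and at equal peak numbers in D1240A and WT only. PTK2, the focal adhesion kinase, was covered over 3.58 kb in TKO and 4.38 kb in WT, and the parvins PARVG (6.69 kb) and PARVB (3.86 kb) in TKO alone. TLN1, a talin, and FERMT3, the kindlin of blood cells, which both activate integrins, had H3K4me3 in all 4 forms and H3K27me3 in none.

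Of 30 integrin ligand genes, H3K27me3 was called at 2 in D1240A, 1 in F1295A, 5 in TKO and 9 in WT. The all-gene shares were 9.36%, 9.93%, 18.4% and 16.1% in that order, and the ligand share was above them in WT alone. H3K4me3 was called at 7, 9, 8 and 8 ligand genes in that order. Here the all-gene shares were 49.2%, 52.1%, 47.5% and 51.4%, and the ligand share was below them in every form. At equal peak numbers the H3K27me3 counts were 2 in D1240A, 1 in F1295A, 1 in TKO and 5 in WT, and no all-gene share is given for that setting. COL1A1, a collagen chain, carried H3K27me3 in every form under both settings. At equal peak numbers CDH1 and LAMA5, described next, had an H3K27me3 call in no form. LAMA3 had one in WT only and COL4A2 in D1240A and WT. CDH1, which encodes E-cadherin, was covered by H3K27me3 over 10.1 kb in TKO and 11.8 kb in WT and not in the mutants. It had H3K4me3 over 2.07 kb in F1295A and 1.81 kb in TKO. LAMA3 was covered by H3K27me3 over 8.995 kb in TKO and 9.67 kb in WT, and LAMA5 over 7.31 kb in WT. LAMA5 also had an H3K4me3 peak in all 4 forms. COL4A2 was covered by H3K27me3 over 5.53 kb in D1240A, 5.09 kb in TKO and 6.45 kb in WT. VCAM1, the ligand of the receptor formed by ITGA4 and ITGB1, had no peak of either mark in any form.

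**Figure D5:**
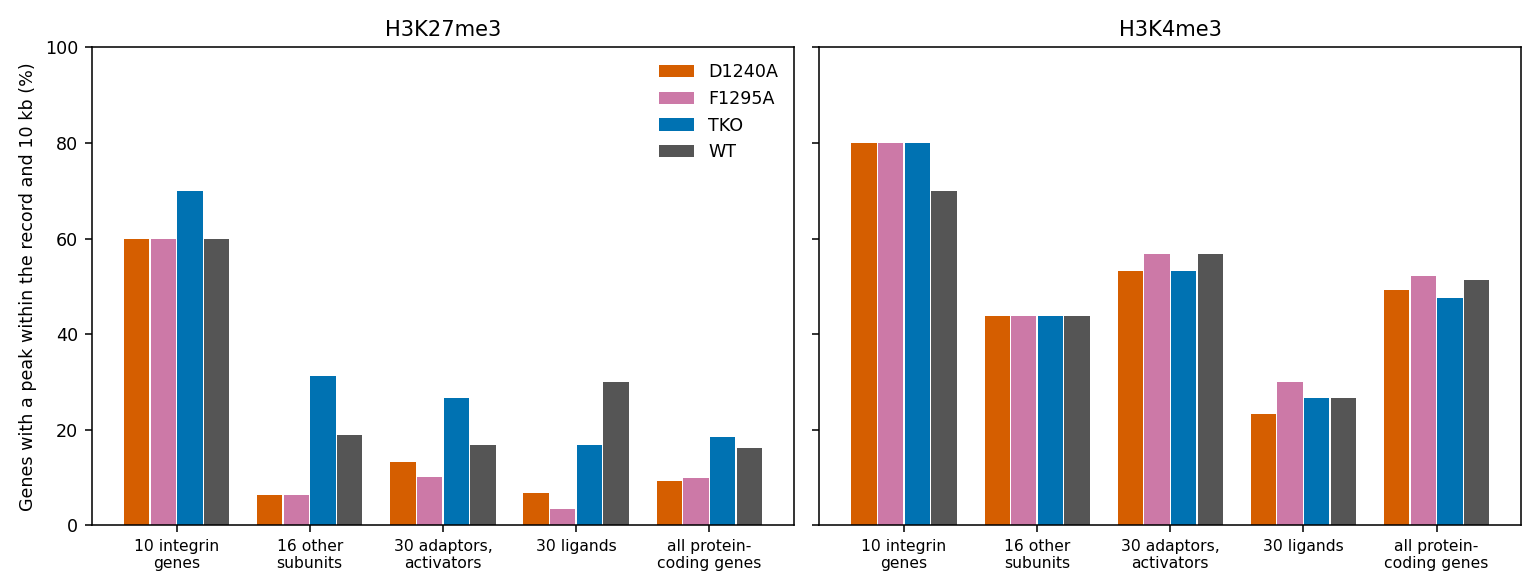
Share of genes in percent (y axis) with an H3K27me3 peak (left) or an H3K4me3 peak (right) within the record and 10 kb, for the 10 integrin genes, the 16 other subunits, 30 adaptors and activators, 30 ligands and all 19974 protein-coding genes (x axis), with 1 bar per form. The 10 genes were chosen with these calls known, so their taller bars are a description of the choice; H3K27me3 was called at 6, 6, 7 and 6 of them in D1240A, F1295A, TKO and WT.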

How the data were processed

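Formaldehyde-fixed TKO cells were profiled by ChIPmentation, per the labels' protocols. The submitters' processing notes name SEACR 1.3, Bowtie2 2.4.5, Trimmomatic 0.36, FastQC 0.11.4 and GRCh38. The mode, control, threshold and scaling used with SEACR were not given in the sources used here. The authors deposited 8 peak lists whose values are total and highest signal (coverage) per peak. The labels send both H3K27me3 replicates to a common list per form, combined in a way that is not stated. Signal is the authors' own and served only to rank and filter peaks within a list. A position of highest signal was used for H3K4me3 alone, since in the H3K27me3 lists it spanned the whole peak. Depth is unknown, and list length can reflect depth or threshold as well as the mark.

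Peaks were matched to RefSeq gene records (GRCh38.p14, no strand) with at least 1 bp within the record and 10 kb around it, using pandas 2.3.3, numpy 2.4.6, scipy 1.17.1 and matplotlib 3.10.9 under Python 3.11.15. Start sites, strands and promoter sequences were taken from RefSeq's promoters of GRCh38.p14, which held 15812 of the 19974 genes and 6 of the 10 members; ITGA3, ITGA7, ITGB2 and ITGB4 were placed by the ends of their records. Percentiles have Clopper-Pearson 95% intervals, which cover counting error only. Since each form and mark had 1 list, differences were left untested and carry no p-value. The matching was tested on simulated data.

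The members, the gene lists and the alternatives were chosen with earlier results of these data known. All 10 members are described. Of the other subunits up to 6, and of the adaptors and the ligands up to 4 each, were named where their call differed between forms, in order of covered bases; further genes of these lists were named after their values were seen. The nearest pattern to a member was the gene on another chromosome with the smallest Euclidean distance over the 8 covered shares. Alternatives changed the window, the overlap, the peaks used and the measure ranked. Some genes that the lists or peaks name are not reported here.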

Additional observations from a re-analysis of the deposited data

How the results depend on the processing

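Of 168 counts recomputed under other settings, 124 stayed within 1.5 times the reported count and 44 did not. With the gene record alone or 1 kb around it, H3K4me3 was called at 5 members in D1240A, 5 in F1295A and 5 in TKO, and both marks at 2 in every form, because the peaks at ITGA10, ITGB2 and ITGB4 lie farther out. Within 1 kb of the start site, for the 6 members that have one, H3K27me3 was called at 1 in D1240A, 1 in F1295A, 2 in TKO and 1 in WT, H3K4me3 at 3 in each form and both marks at 0. In the stronger 50% of each list, H3K4me3 was called at 5 members in D1240A, 5 in F1295A and 4 in TKO, and both marks at 2 in every form; H3K27me3 was called at 4 in D1240A and 4 in F1295A, without ITGA3 and ITGB4. With at least 50% of the peak inside the window, both marks were called at 3 members in F1295A. At equal peak numbers H3K27me3 was called at 5 members in TKO, without ITGA2 and ITGA3, and covered 1 start there, as it did in the stronger 50%. For the other subunits and adaptors, H3K27me3 was called in the stronger 50% at 3 genes in D1240A, 2 in F1295A, 5 in TKO and 5 in WT, at equal numbers at 5 in TKO and 5 in WT, and with 25 kb at 7 in F1295A; H3K4me3 was called in the stronger 50% at 15 in TKO. Ranking the strongest peak of each member by highest signal, mean signal or width moved its percentile by a median of 7.81, 9.30 and 11.3 points over 56 peaks, and at most by 36.5 (ITGB4 H3K27me3 in TKO), 40.3 (ITGB7 H3K4me3 in F1295A) and 54.7 (ITGB4 H3K4me3 in WT). No paired analysis was possible because both H3K27me3 samples of a form share 1 peak list, and leaving out a replicate was not run for the same reason. Depth, threshold and form cannot be told apart in these lists, and a gene without a peak may hold the mark below the threshold.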

Other observations

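At ITGB2 an H3K27me3 peak of F1295A (chr21:44913088-44917010, 3.92 kb) lay inside the 3.991 kb gap between the WT peaks, starting 14 bp after the first and ending 54 bp before the second. By mean signal it exceeded 87.3% of the other F1295A peaks, although by total signal its percentile was 17.8. Neither D1240A nor WT had a peak over that stretch, and TKO covered most of it with an 8.96 kb peak that began at position 44913694.

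Genes on other chromosomes were set beside each member by the likeness of their 8 covered shares, 1 per list. The smallest distance for ITGB7 was to B4GALT3 on chromosome 1, a galactosyltransferase gene, at 0.0383. B4GALT3 was covered by H3K4me3 over 37.5% of its window in D1240A, 53.6% in F1295A, 30.4% in TKO and 42.0% in WT, and by no H3K27me3. For ITGA5 it was to CD300C, a myeloid receptor gene, at 0.112, and CD300C was covered by H3K27me3 over 74.4% in D1240A, 74.7% in F1295A, 93.3% in TKO and 92.9% in WT. ITGB2 was nearest to CHIT1, the chitotriosidase gene of macrophages, at 0.0543, with H3K27me3 over 26.1%, 45.7%, 50.4% and 57.5% in the same order. ITGA10 was nearest to THPO (0.119), ITGA3 to ATP4A (0.0716), ITGA7 to LCN10 (0.0656), ITGB4 to MAD2L2 (0.0700), ITGA4 to HIKESHI (0.00321), ITGB1 to NCAPG2 (0.00101) and ITGA2 to HEATR6 (0.000131). Distances are small by construction for members with little of their window covered.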
